A study of Mus musculus with 6 samples.

Results

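The tumour necrosis factor (TNF) superfamily in regulatory T cells (Treg) was described here through 40 genes, 16 ligands and 24 receptors, of 38854 genes measured. Members were the genes whose symbol carries the Tnfsf or Tnfrsf prefix with a number, together with Tnf, Lta, Ltb, Ltbr, Cd40, Cd40lg, Cd27, Cd70, Fas and Fasl. The rule reads gene names only. Fas and Tnfrsf19 had 2 rows each, and the brighter row stands for the gene.

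RNA of Treg from Foxp3-GFP reporter mice was hybridised to Affymetrix arrays, 3 for liver Treg (arrays 2, 3 and 7) and 3 for spleen Treg (arrays 4, 5 and 6). All mice had received IL-2/IL-2Ab, interleukin-2 bound to an antibody, for 3 days and then rested for 3 days, so every sample carried the same reporter allele and the same treatment, and no untreated group enters the comparison. The labels give neither age nor sex, do not say whether an array stands for 1 animal or a pool, and describe the isolation once as fluorescence-activated and once as magnetic sorting. The p-values therefore rest on array to array variation that could be technical rather than between animals.

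TNF superfamily ligands are mostly trimeric membrane proteins of activated lymphocytes and myeloid cells, and their receptors fall into costimulatory receptors that bind TRAF adaptors, death receptors that bind adaptors with death domains, and decoys without a signalling tail. Treg are known for high surface levels of several costimulatory receptors of this family, among them GITR (Tnfrsf18), OX40 (Tnfrsf4) and TNFR2 (Tnfrsf1b), through which NF-kB activation supports their survival and expansion. The comparison asks whether Treg from liver and spleen differ in these ligands and receptors after expansion.

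The samples carried the defining transcripts of Treg on every array. Foxp3, Il2ra, Ctla4, Ikzf2, Cd3e and Cd4 were all above background on all 6 arrays, and their summed signal (log2 of the summed linear signals) lay between 13.87 and 13.97 in liver and between 13.87 and 13.96 in spleen. Spleen array 5 had the highest background signal, with a mean of 4.55 over 23 background control rows against 4.09 to 4.34 on the other 5 arrays. It was the highest array in 24 of the 40 members and in 49% of all genes. Spleen array 6 was the lowest array in 14 members and the highest in none, against 23.6% and 7.85% of all genes.

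Between Treg of liver and spleen, 33 of the 40 members (82.5%) differed by under 0.2 on the log2 scale, and the clearest differences were lower signals in liver. The CD30 ligand Tnfsf8 differed most, at 1.66-fold higher signal in spleen on liver values below the 95th percentile of background, followed by the RANK ligand Tnfsf11 at 1.42-fold and the receptor 4-1BB, Tnfrsf9, at 1.31-fold. These 3 were the only members with an unadjusted limma p under 0.05, and all lay lower in liver, against 1.68% of all genes lower and 2.09% higher (3.77% in either direction). None of the 40 passed limma after Benjamini-Hochberg adjustment over all genes at 0.05, against 0.0206% of all genes (0.0103% higher and 0.0103% lower in liver). Adjusted p was 1 for each of the other 37 members. The arrays of the groups did not overlap in 5 members, with liver lower in 4 and higher in 1, against 3.09% and 3.11% of all genes (6.19% in either direction). With weights estimated for each array, 7 members passed (Tnfsf8, Tnfsf11 and Tnfrsf9 lower in liver, Ltb, Tnfsf9, Tnfsf10 and Tnfrsf13c higher), but that fit put a weight of 9.34 on liver array 2 and 0.188 on spleen array 5 and called 3533 genes in all.

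**Figure D1:**
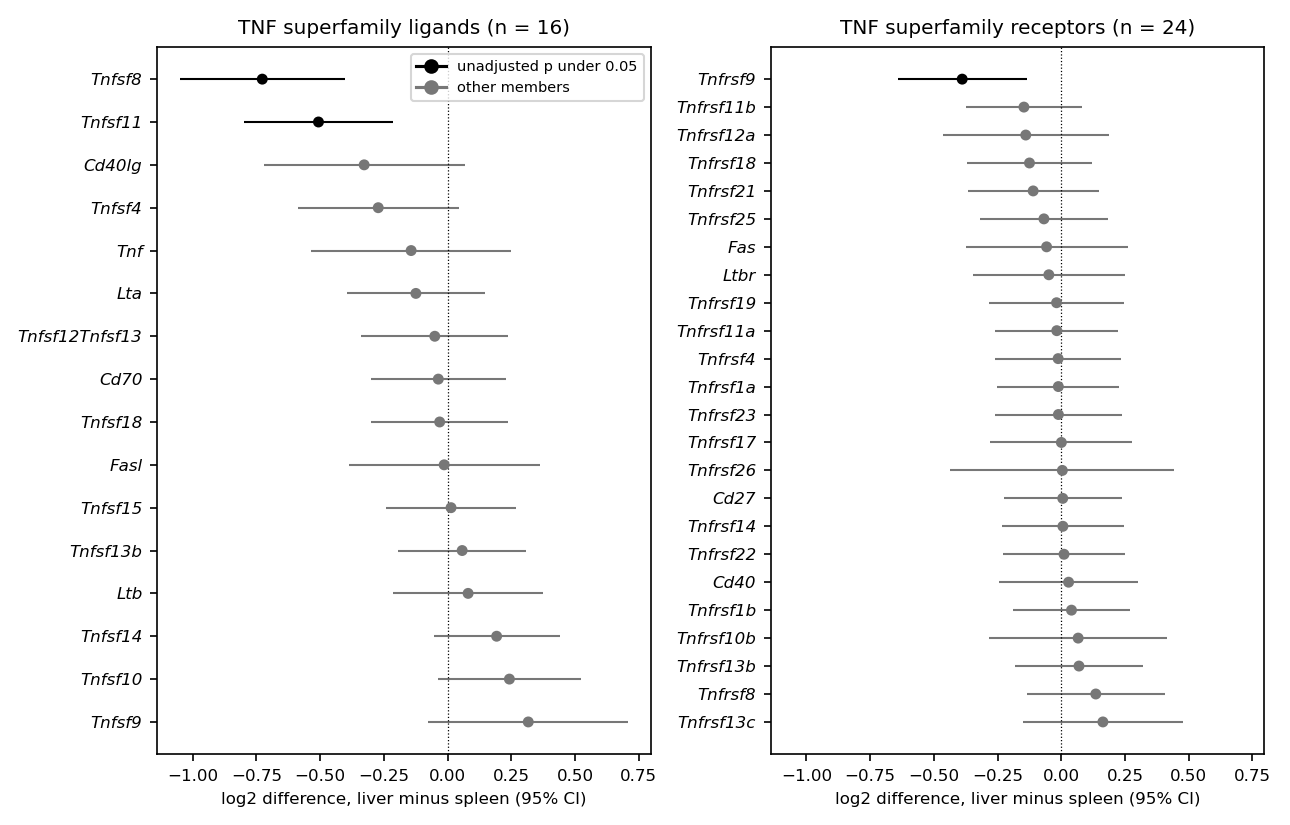
Log2 difference between liver and spleen Treg (points) with its 95% confidence interval from limma (bars) for 16 ligands and 24 receptors of the TNF superfamily, from 3 arrays against 3. Tnfsf8 at -0.73, Tnfsf11 at -0.51 and Tnfrsf9 at -0.39 are the members whose interval leaves out 0.

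Ligands and receptors differed in how far their members spread. The median absolute log2 difference was 0.13 over the 16 ligands and 0.04 over the 24 receptors, beside 0.07 over all genes. Differences under 0.2 were found in 10 ligands (62.5%) and in 23 receptors (95.8%), against 89.8% of all genes. The signed medians were close to 0, at -0.03 for ligands and -0.01 for receptors, beside -0.02 for all genes. Without spleen array 5 they were 0.05 for each, beside 0.05 for all genes. The standard deviation between arrays of a group had a median of 0.18 for ligands, 0.12 for receptors and 0.15 for all genes. The ligands thus also varied more within a tissue, and these figures are descriptions over members, which are not replicates.

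Among the ligands, Tnfsf8 encodes the CD30 ligand, a membrane protein of activated T cells. Its log2 signal (transcript cluster TC0400002809.mm.1) was 6.89, 7.22 and 6.95 on liver arrays 2, 3 and 7 and 7.86, 7.95 and 7.43 on spleen arrays 4, 5 and 6. No liver value reached the lowest spleen value, which was that of array 6. The mean was 7.02 ± 0.18 in liver and 7.75 ± 0.28 in spleen (SD, n = 3), a log2 difference of -0.73 with a 95% confidence interval from -1.05 to -0.40 (limma adjusted p = 0.26, unadjusted p = 0.00037). All 3 liver values were below the 95th percentile of the background rows on their arrays and all 3 spleen values above it, while all 6 exceeded the mean of those rows plus 1. The interval corresponds to a fold of spleen over liver between 1.32 and 2.07. The receptor of this ligand, CD30 (Tnfrsf8), went the other way by a small amount, at 0.14 (-0.14 to 0.41), with overlapping groups. The receptor differed by 0.24 without spleen array 5, at an unadjusted p under 0.05, and by 0.05 without spleen array 6. Exact permutation of 3 arrays against 3 cannot give a two-sided p under 0.1 for any gene.

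Tnfsf11 encodes RANK ligand, known from osteoclast formation and from lymph node development and made by activated T cells. It measured 7.46, 7.37 and 7.57 in liver and 8.01, 8.20 and 7.71 in spleen, in the order of arrays given above. Again every liver array was below every spleen array, with a gap of 0.14 between the nearest arrays. The log2 difference was -0.51 (95% confidence interval -0.80 to -0.21, limma adjusted p = 0.45). Its signalling receptor RANK, Tnfrsf11a, differed by -0.02 (-0.26 to 0.22). Its soluble decoy osteoprotegerin, Tnfrsf11b, was dim, with 5.24, 5.16 and 5.23 in liver and 5.35, 5.41 and 5.31 in spleen, no overlap between groups, and a difference of -0.15 (-0.37 to 0.08, adjusted p = 1). Osteoprotegerin was below the 95th percentile of the background rows on all arrays.

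Tnfrsf9 encodes 4-1BB (CD137), a costimulatory receptor induced when T cells are activated and present on activated Treg. It read 9.64, 9.70 and 9.72 on the liver arrays and 10.17, 10.16 and 9.89 on the spleen arrays. The liver values spanned 0.09 and lay below all spleen values. The difference was -0.39 (95% confidence interval -0.64 to -0.14, limma adjusted p = 0.61). The transcript was above the 99th percentile of background on all 6 arrays. Its ligand Tnfsf9, made chiefly by antigen-presenting cells, measured 6.03, 6.11 and 5.89 in liver and 5.98, 5.91 and 5.19 in spleen. The groups overlapped, and the ligand's difference of 0.32 (-0.08 to 0.71) came with spleen array 6 standing 0.75 below the mean of spleen arrays 4 and 5. Without spleen array 4 it was 0.46, at an unadjusted p under 0.05, but without spleen array 6 it was 0.07. Tnfsf9 was below the 95th percentile of background on all 6 arrays.

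**Figure D2:**
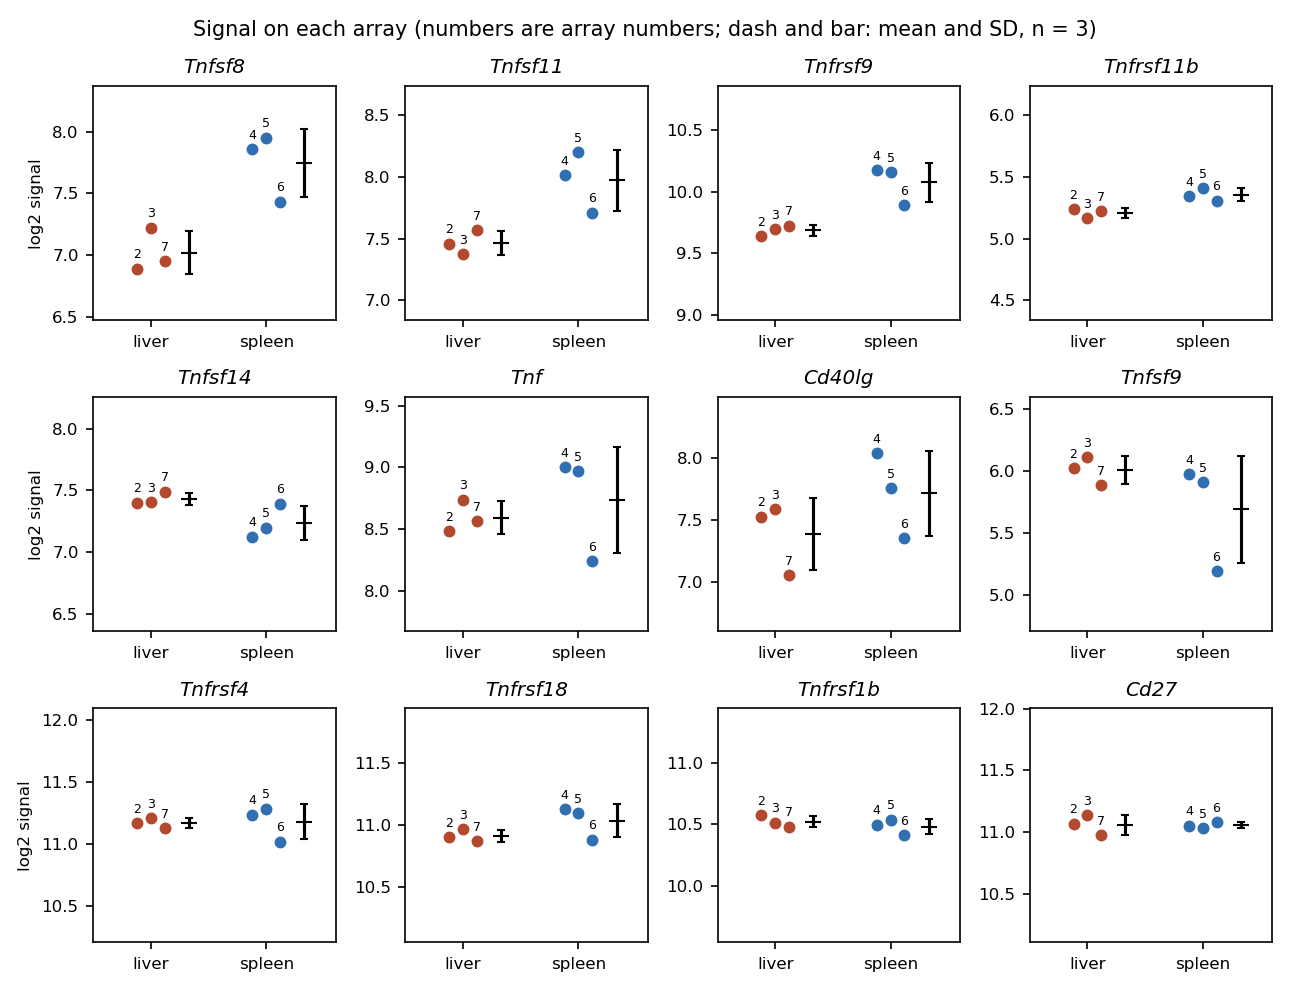
Log2 signal of 12 members on each array, liver Treg in red and spleen Treg in blue, with the array number beside each point and the mean and SD of the 3 arrays as a dash and bar; every panel spans the same range of log2 units. The groups are separate in Tnfsf8, Tnfsf11, Tnfrsf9, Tnfrsf11b and Tnfsf14, and spleen array 6 lies lowest of the 6 in Tnf, Tnfsf9, Tnfrsf4 and Tnfrsf1b.

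Because the differences turn on Tnfsf8, Tnfsf11 and Tnfrsf9, the 250 bases before their RefSeq starts (GRCm38.p6, gene strand, 5′ to 3′) are printed, with matches to 3 motifs in capitals. The motifs were the 10-base kB consensus bound by NF-kB, TGANTCA for AP-1 and GGAAAA for NFAT, each searched on both strands, and they were chosen after the values were seen. The regions are chr4:63861285-63861534 on the minus strand for Tnfsf8 and chr14:78308044-78308293 on the minus strand for Tnfsf11. Tnfrsf9 has 2 starts in the table, at chr4:150919905-150920154 and chr4:150927749-150927998 on the plus strand.
Tnfsf8: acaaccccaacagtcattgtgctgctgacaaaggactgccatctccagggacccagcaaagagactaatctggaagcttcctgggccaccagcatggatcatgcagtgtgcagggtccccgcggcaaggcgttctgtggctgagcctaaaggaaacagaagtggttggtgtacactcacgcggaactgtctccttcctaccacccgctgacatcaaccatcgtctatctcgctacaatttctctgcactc
Tnfsf11: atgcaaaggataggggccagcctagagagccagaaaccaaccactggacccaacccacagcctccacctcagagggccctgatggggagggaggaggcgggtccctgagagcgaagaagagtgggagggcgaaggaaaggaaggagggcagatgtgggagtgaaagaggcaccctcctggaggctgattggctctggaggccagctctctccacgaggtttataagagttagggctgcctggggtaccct
Tnfrsf9 start 1: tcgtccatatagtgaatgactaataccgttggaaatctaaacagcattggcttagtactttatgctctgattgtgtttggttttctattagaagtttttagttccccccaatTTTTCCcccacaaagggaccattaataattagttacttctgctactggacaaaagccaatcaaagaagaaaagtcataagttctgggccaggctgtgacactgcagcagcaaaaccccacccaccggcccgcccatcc
Tnfrsf9 start 2: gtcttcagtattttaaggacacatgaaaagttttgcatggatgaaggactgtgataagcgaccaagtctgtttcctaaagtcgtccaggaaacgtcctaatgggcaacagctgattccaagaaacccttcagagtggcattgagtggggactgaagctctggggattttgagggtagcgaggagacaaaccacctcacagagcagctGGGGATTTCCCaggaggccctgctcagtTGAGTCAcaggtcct

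Tnfrsf9 start 2 held 2 overlapping kB matches beginning 43 and 42 bases before the start and an AP-1 match beginning 15 bases before it, and start 1 held an NFAT match. The windows of Tnfsf8 and Tnfsf11 held none of these letters. Over 32851 promoter windows of the same length, 7.25% held the kB consensus, 6.75% the AP-1 motif and 20.4% the NFAT motif. Promoters were matched for 31 of the 40 members, with 35 starts, of which 4 held the kB consensus (Ltb, Tnfrsf8, Tnfrsf9 and Tnfrsf25), 5 the AP-1 motif and 11 the NFAT motif. A match describes letters in a window and is not a measured binding site.

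Cd40lg and Tnf, both made by activated T cells, had overlapping arrays and depended on single arrays. CD40 ligand, Cd40lg, through which T cells activate B cells and dendritic cells, measured 7.53, 7.59 and 7.05 in liver and 8.04, 7.76 and 7.35 in spleen. Liver array 7 was its lowest value and spleen array 4 its highest, and the difference was -0.33 (95% confidence interval -0.72 to 0.07). It was -0.51 without spleen array 6 and -0.43 without liver array 3, both at an unadjusted p under 0.05, but -0.16 when liver array 7 and -0.17 when spleen array 4 was left out, and with array weights it turned to 0.03. Tnf itself, the prototype inflammatory cytokine of the family, read 8.48, 8.74 and 8.56 in liver and 8.999, 8.97 and 8.24 in spleen. Spleen array 6 was below every liver array, and the other spleen arrays were above every liver array. Its difference of -0.14 (-0.54 to 0.25) was -0.39 without spleen array 6, again at an unadjusted p under 0.05, -0.01 and -0.03 when spleen array 4 or 5 was left out, and 0.11 with array weights.

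The lymphotoxin genes, whose products organise lymphoid tissue, had intervals that include 0. Ltb measured 9.50, 9.47 and 9.15 in liver and 9.23, 9.50 and 9.15 in spleen, a difference of 0.08 (-0.21 to 0.38). Spleen array 6 was its lowest array and spleen array 5 its highest. Lta differed by -0.12 (-0.40 to 0.15). The receptor of the lymphotoxin heterotrimer, Ltbr, averaged 6.89 ± 0.07 (SD, n = 3) in liver and 6.94 ± 0.26 in spleen.

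Tnfsf14 encodes LIGHT, a ligand of HVEM and of the lymphotoxin beta receptor, and was the only member whose 3 liver arrays all lay above the spleen arrays. It read 7.40, 7.40 and 7.49 in liver and 7.13, 7.20 and 7.39 in spleen. The nearest liver and spleen arrays were 0.01 apart, and the difference was 0.19 (-0.05 to 0.44). HVEM, Tnfrsf14, which also binds Lta, measured 7.22, 7.37 and 7.35 in liver and 7.22, 7.40 and 7.30 in spleen. These ranges overlap almost fully, and the difference was 0.01 (-0.23 to 0.25).

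Death ligands and their receptors had intervals that include 0. TRAIL, Tnfsf10, an interferon-inducible ligand that triggers apoptosis, measured 8.78, 8.75 and 8.51 in liver and 8.63, 8.29 and 8.39 in spleen. Its groups overlapped at liver array 7 and spleen array 4, and the difference was 0.24 (-0.04 to 0.52). It was 0.33 without liver array 7 and 0.34 without spleen array 4, both at an unadjusted p under 0.05. It was 0.17 without spleen array 5. Its death receptor Tnfrsf10b differed by 0.07 (-0.28 to 0.42). The decoy receptors Tnfrsf22 and Tnfrsf23, which bind mouse TRAIL, differed by 0.01 and -0.01. Fas ligand, Fasl, measured 7.57, 7.84 and 7.40 in liver and 7.97, 7.61 and 7.27 in spleen. Its highest and its lowest array were both from spleen, and the difference was -0.01 (-0.39 to 0.36). Its receptor Fas ranged from 8.74 to 9.18 in liver and from 8.89 to 9.29 in spleen, with means of 8.98 ± 0.22 and 9.03 ± 0.22 (SD, n = 3), and differed by -0.06 (-0.38 to 0.26). The second row with the symbol Fas differed by -0.18. Its cluster name (TC1700001230.mm.1) gives another chromosome than that of the first (TC1900000497.mm.1), so it may not measure the same gene. Of the receptors named here, Tnfrsf22 and Tnfrsf23 lie next to each other and to their close relative Tnfrsf26 on the chromosome. The probes of these relatives may share targets.

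Markers of NK cells and ILC1, dendritic cells and CD8 T cells measured mostly higher in the liver samples, while those of monocytes and macrophages were mixed. None passed limma after adjustment. In the neutrophil and plasma cell lists 1 of 4 markers each was higher in liver, with median differences of -0.06 and -0.09. The higher plasma cell marker, Igj, differed by 0.75. It measured 6.925, 6.949 and 5.520 in liver and 5.733, 5.759 and 5.666 in spleen, so the groups overlapped at liver array 7. Of 4 hepatocyte markers 2 were higher and 2 lower in liver, with a median difference of 0.03. The hepatocyte marker Alb differed by 0.47 without overlap, and exceeded the mean of the background rows plus 1 on 3 arrays. Of 6 NK cell and ILC1 markers 5 were higher in liver, with a median difference of 0.77. Their summed signal was 9.43 to 10.37 in liver against 8.68 to 9.06 in spleen. Liver array 7 was the lowest liver array in every NK cell, ILC1 and dendritic cell marker. Klrb1c, for example, measured 7.29, 7.24 and 6.03 in liver and 5.82, 5.98 and 5.68 in spleen. Klre1 was above background (the mean of the background rows plus 1) on no array, Ncr1 on 3 and Klrd1 on 5. Of 7 dendritic cell markers 6 were higher, with a median of 0.47 and a summed signal of 8.69 to 9.24 against 8.30 to 8.51. Xcr1 was above the same background level on no array and Clec9a on 4. No dendritic cell marker was above the 95th percentile of background on any array. Cd8a and Cd8b1 differed by 0.97 and 0.29, with summed signals of 9.41 to 9.47 in liver and 8.65 to 9.30 in spleen. Of 8 monocyte and macrophage markers 5 were higher, with a median of 0.07 and a summed signal of 9.63 to 10.12 against 9.43 to 9.82, and Lyz2 differed most at 1.39 (limma adjusted p = 0.066). Of the 23 NK cell, dendritic, CD8 and monocyte markers 13 had an unadjusted p under 0.05, all higher in liver. Of all genes 2.09% were higher by this rule and 3.77% differed in either direction. The part of such cells in the levels of Tnfsf10, Tnfsf14, Tnfsf9 and Fasl, or in the lower Tnfsf8, Tnfsf11 and Tnfrsf9 of the same arrays, was not tested. In sorted bulk samples, fewer cells of a type and less RNA per cell cannot be told apart.

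Beside 4-1BB, the costimulatory receptors OX40, GITR, TNFR2 and CD27 were above the 99th percentile of background on every array, and in each of these 4 the arrays of both organs overlapped. OX40, Tnfrsf4, measured 11.17, 11.21 and 11.13 in liver and 11.24, 11.28 and 11.02 in spleen, a difference of -0.01 (-0.26 to 0.24). GITR, Tnfrsf18, read 10.90, 10.97 and 10.87 in liver and 11.13, 11.10 and 10.88 in spleen, a difference of -0.12 (-0.37 to 0.12). In GITR, liver array 3 and liver array 2 were above spleen array 6 and below the other spleen arrays. TNFR2, Tnfrsf1b, the main TNF receptor of Treg, measured 10.57, 10.51 and 10.48 in liver and 10.50, 10.54 and 10.41 in spleen, the narrowest range of any member (0.16). Its difference was 0.04 (-0.19 to 0.27). CD27 (Cd27), a receptor of naive and memory T cells, measured 11.07, 11.14 and 10.97 in liver and 11.05, 11.03 and 11.08 in spleen. All its spleen values lie within the liver range, and the difference was 0.01 (-0.23 to 0.24). As folds of spleen over liver these intervals end at 1.20 for OX40, 1.29 for GITR, 1.14 for TNFR2 and 1.17 for CD27. DR3, Tnfrsf25, which expands Treg when engaged, measured 7.49, 7.40 and 7.44 in liver and 7.35, 7.66 and 7.52 in spleen. The liver values lie within the spleen range, and the difference was -0.07 (-0.32 to 0.18). DR3 was above the 99th percentile of background on 2 arrays.

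The ligands of GITR, CD27 and OX40 were near background, while Tnf, a ligand of TNFR2, was above its 99th percentile on all 6 arrays. GITR ligand, Tnfsf18, spanned 3.53 to 3.87 and CD70 (Cd70) 4.43 to 4.79, and these were the 2 members not above the mean of the background rows plus 1 on any array. OX40 ligand, Tnfsf4, measured 5.35, 5.34 and 5.40 in liver and 5.55, 5.98 and 5.38 in spleen. Its highest value fell on spleen array 5, which had the highest background, and the difference was -0.27 (-0.59 to 0.04). Without spleen array 6 it was -0.40, at an unadjusted p under 0.05, but without spleen array 5 it was -0.10. These ligands are known mainly from antigen-presenting cells. TL1A, Tnfsf15, the ligand of DR3, spanned 5.74 to 6.02.

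How many members count as detected depends on the background level used. The background rows cover probes of different GC content and differ widely in signal, so a strict level, the 95th percentile of these rows on each array, was set beside a lenient one. By the strict level 13 of 40 members (32.5%) were above background on all 6 arrays, 4 ligands (Ltb, Tnf, Tnfsf10 and Tnfsf11) and 9 receptors, against 23.1% of all genes. By the lenient level, the mean of the rows plus 1, it was 35 members (87.5%) against 62.1% of all genes. Of 28 ligand and receptor pairs, 2 had both partners above the strict level on all arrays, Tnf with TNFR2 and TRAIL with its decoy Tnfrsf22. In 8 pairs this held for the receptor alone, in 7 for the ligand alone and in 11 for neither. Differences of ligand and receptor had opposite signs in 14 of the 28 pairs, which share members with each other.

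Receptors of B cells and stromal cells made up the rest of the family. BAFF receptor, Tnfrsf13c, known from B cell survival, measured 7.36, 7.42 and 7.36 in liver and 7.11, 7.56 and 6.99 in spleen. Its liver values spanned 0.06 and lay inside the range of the spleen values, and the difference was 0.16 (-0.15 to 0.48). Without spleen array 5 it was 0.33, at an unadjusted p under 0.05, but without spleen array 6 it was 0.05. TACI, Tnfrsf13b, differed by 0.07 (-0.18 to 0.32), BCMA, Tnfrsf17, by 0.00 (-0.28 to 0.28) and Cd40 by 0.03 (-0.24 to 0.30). Beside them, 5 of 7 B cell markers were higher in liver and 2 lower, with a median difference of 0.16. Their summed signal was 9.67 to 9.88 in liver and 9.51 to 9.77 in spleen. Ms4a1 differed most, at 0.38, and its groups did not overlap, as in Cd79a at 0.16. The part of B cells in these receptors was not tested. The cytokine BAFF, Tnfsf13b, differed by 0.06 (-0.19 to 0.31), and the row that joins TWEAK and APRIL as Tnfsf12Tnfsf13 by -0.05 (-0.34 to 0.24). Fn14, Tnfrsf12a, the receptor of TWEAK, spanned 6.65 to 7.09 in liver and 6.79 to 7.26 in spleen. Tnfrsf1a, the broadly expressed TNF receptor with a death domain, differed by -0.01, Tnfrsf19 by -0.02 and death receptor 6, Tnfrsf21, by -0.11.

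**Figure D3:**
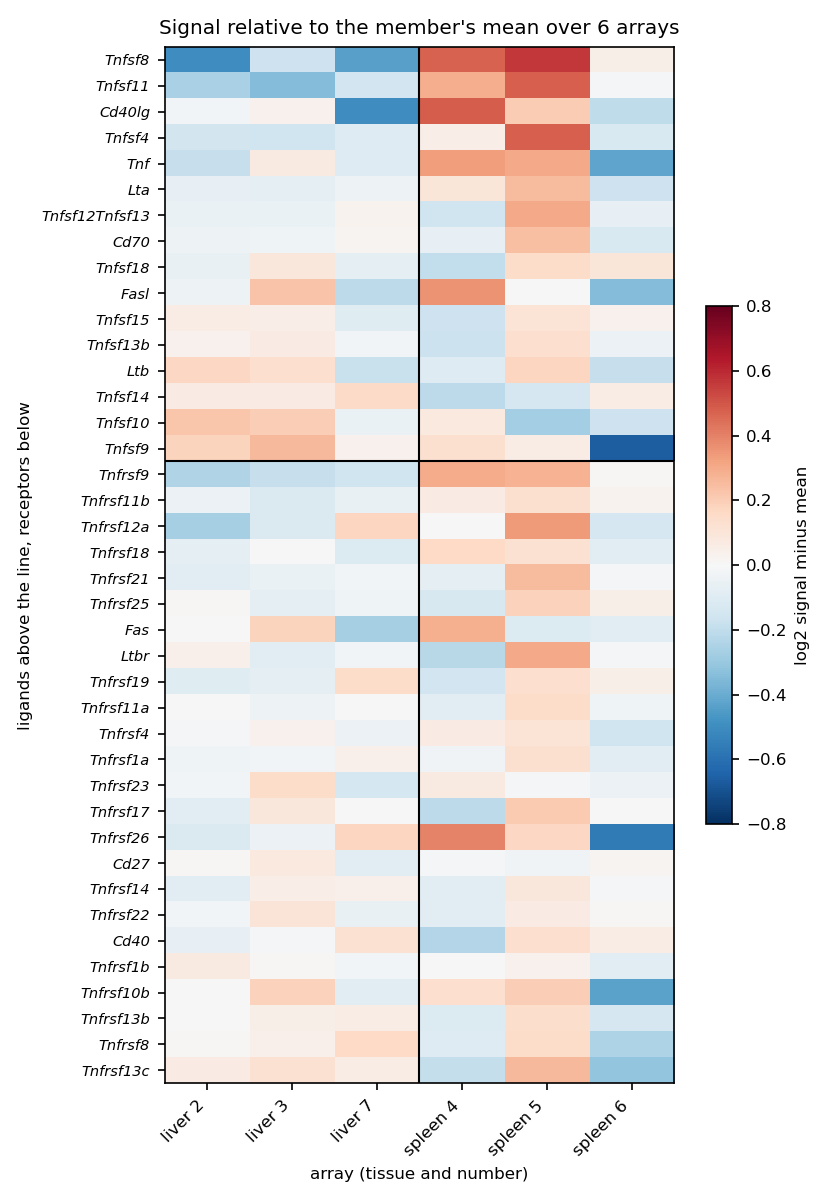
Log2 signal of each member on each of the 6 arrays after subtraction of the member's own mean, ligands above the horizontal line and receptors below, sorted by the difference between liver and spleen. Tnfsf8, Tnfsf11 and Tnfrsf9 are low on the 3 liver arrays, spleen array 5 is high in many rows and spleen array 6 is low in Tnfrsf26, Tnfsf9, Tnf and Tnfrsf10b.

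Spleen arrays differed among themselves in part of the family. Spleen array 6 lay more than 0.3 below the mean of spleen arrays 4 and 5 in 12 members and more than 0.3 above it in none. The same count was not made over all genes, and spleen array 5 was the highest array in 49% of them. The largest gaps were in Tnfrsf26 (-0.85), Tnfsf9 (-0.75), Tnf (-0.74), Tnfrsf10b (-0.60), Cd40lg (-0.55) and Fasl (-0.53). Tnfsf8 (-0.47), Tnfsf11 (-0.40) and Tnfrsf9 (-0.27) were also lower on spleen array 6. Tnfrsf26, a receptor with no ligand assigned here, measured 7.62, 7.69 and 7.91 in liver and 8.13, 7.90 and 7.17 in spleen, the widest range of any receptor (0.96). Without spleen array 6 the differences of Tnfsf8, Tnfsf11 and Tnfrsf9 were -0.88, -0.64 and -0.48, and leaving out any other single array gave -0.83 to -0.63, -0.56 to -0.39 and -0.41 to -0.34.

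**Figure D4:**
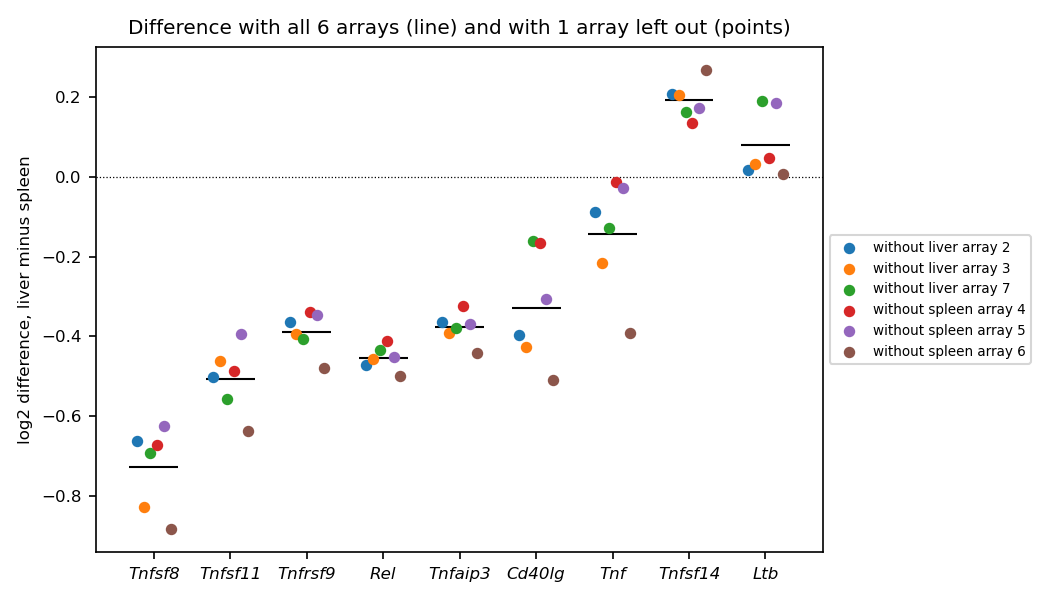
Log2 difference between liver and spleen Treg for 7 members and the NF-kB genes Rel and Tnfaip3, with all 6 arrays (black line) and with each array left out in turn (coloured points). Tnfsf8, Tnfsf11, Tnfrsf9, Rel and Tnfaip3 stay below 0 in every case, Cd40lg and Tnf move most with the spleen array left out.

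Several members neighbour each other on a chromosome. Tnfsf8 lies next to Tnfsf15, which differed by 0.01 where Tnfsf8 differed by -0.73. Tnfsf9, Cd70 and Tnfsf14 follow each other, at 0.32, -0.04 and 0.19, and Ltb, Tnf and Lta at 0.08, -0.14 and -0.12. The receptor neighbours Tnfrsf4 and Tnfrsf18 differed by -0.01 and -0.12, and Tnfrsf1b and Tnfrsf8 by 0.04 and 0.14. Neighbours are those of a RefSeq gene table (GRCm38.p6), counted over protein-coding genes, and whether neighbours differ from other pairs was not tested.

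Downstream of the receptors, 38 genes for adaptors, kinases, ubiquitin enzymes, NF-kB subunits and feedback inhibitors were set beside the family. None passed limma after adjustment over all genes (0.0206% of all genes did), and 2 had an unadjusted p under 0.05, both lower in liver, against 1.68% of all genes in that direction. After quantile normalization 10 did, 8 of them lower in liver, against 2.66% of all genes lower and 6.15% in either direction. After cyclic loess 9 did, 8 of them lower, against 2.86% of all genes lower and 6.25% in either direction. All 38 genes were above the lenient background level on all 6 arrays and 76.3% above the strict one. Of all genes 62.1% and 23.1% were, so the shares over all genes include many dimmer genes. Shares over genes of like signal were not computed. With array weights 4 passed, Rel and Tnfaip3 lower and Mlkl and Otulin higher in liver, in a fit that called 3533 of 38854 genes. Rel, which encodes the NF-kB subunit c-Rel needed for Treg development, measured 9.94, 9.91 and 9.86 in liver and 10.45, 10.36 and 10.27 in spleen. All liver arrays were below all spleen arrays, with SDs of 0.04 and 0.09 (n = 3), and the difference was -0.45 (95% confidence interval -0.69 to -0.22, limma adjusted p = 0.36). Tnfaip3, which encodes the feedback inhibitor A20 and is itself an NF-kB target, read 11.32, 11.38 and 11.36 in liver and 11.84, 11.75 and 11.60 in spleen. The groups did not overlap, and the difference was -0.38 (-0.62 to -0.14, limma adjusted p = 0.58).

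The other genes of this set had intervals that include 0. The groups also did not overlap in Traf5, an adaptor of OX40 and GITR, at -0.15, and in Relb, the subunit of the alternative pathway, at -0.14 with a gap of 0.0003 between the nearest arrays, which makes 4 of 38 with liver lower (3.09% of all genes) and none with liver higher. The inhibitor Nfkbia differed by -0.26 (-0.53 to 0.01) and the deubiquitinase Otulin by 0.26 (-0.00 to 0.52). The set's median difference was -0.03, beside -0.02 for all genes, with 22 of 38 negative. The adaptors Traf1 and Traf2 differed by -0.14 and -0.00, the death adaptor Fadd by -0.06, Casp8 by 0.03 and its inhibitor Cflar by 0.10.

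**Figure D5:**
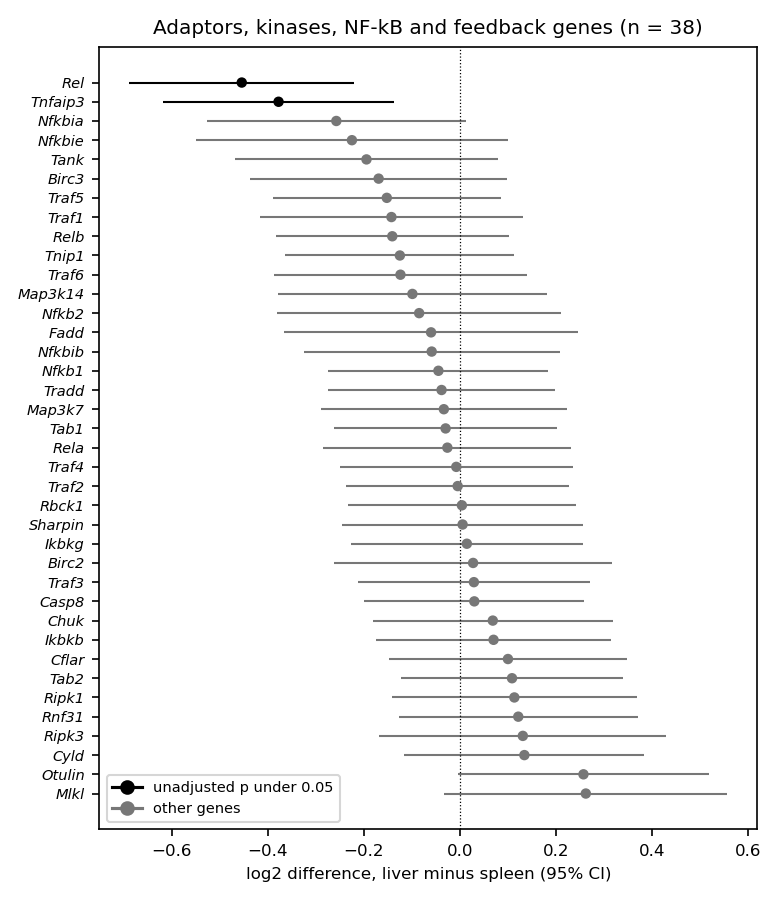
Log2 difference between liver and spleen Treg with its 95% confidence interval from limma for 38 genes that act downstream of TNF superfamily receptors, from 3 arrays against 3. Rel at -0.45 and Tnfaip3 at -0.38 are the genes whose interval leaves out 0.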

How the data were processed

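The authors deposited log2 signals, 1 per array and transcript cluster, and per the submitters' processing notes used RMA and the Affymetrix Expression Console. The sources used here name no version, genome build or annotation release. The protocol names a Mouse Gene ST array and the column headers a Mouse Transcriptome Array. RMA corrects background, normalizes probes to 1 distribution and summarises, and compresses differences of dim genes. Of 72688 rows, 39514 had 1 gene symbol and gave 38854 genes after the brightest row per symbol was kept (526 symbols had more than 1 row). The annotated table and the series' value table held equal numbers (largest difference 0).

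Liver and spleen were compared by a two-sided moderated test (limma 3.58.1, R 4.3.3) without covariates, since the labels give no batch, with Benjamini-Hochberg adjustment over all genes at 0.05 and 95% confidence intervals. The procedure was tested on simulated arrays. The number of arrays limits precision. All members may be named; per-array values are given for those with an unadjusted p under 0.05 or no overlap between groups, for a fixed set of 15 members known from Treg and for some others chosen after their values were seen. Members, lists and markers were chosen with earlier results of these data known. Promoters come from RefSeq (GRCm38.p6). Alternatives were rescaling of the arrays, filters on dim genes, averaging of rows, other variance models, array weights, other background levels and leaving out each array.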

Additional observations from a re-analysis of the deposited data

How the results depend on the processing

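In all 14 alternatives Tnfsf8, Tnfsf11, Tnfrsf9 and the signalling genes Rel and Tnfaip3 stayed lower in liver with an unadjusted limma p under 0.05. The filters on dim genes, averaging of rows and trend and robust variances cannot change the differences of these genes. The genes were picked by this p on the same arrays, so the alternatives are not independent support. No member passed after adjustment in 13 of the 14, and array weights called 7 members and 4 signalling genes. Signalling genes with an unadjusted p under 0.05 numbered 2, but 10 after quantile normalization and 9 after cyclic loess. The shares of all genes in the same fits, dim genes included, were 3.77%, 6.15% and 6.25%. Over all genes the 8 calls became 0 after median subtraction, quantile normalization or cyclic loess, 18 without the lower 50% by mean, 21 without means under log2 5, 27 with trend and robust variances, 3533 with array weights and 0 to 33 with 1 array left out; the cause was not tested. Where limma called 0, the unadjusted p was under 0.05 in 1448 genes after median subtraction, 2391 after quantile normalization, 2429 after cyclic loess and 2017 without spleen array 5. Without liver array 3 it called 1 gene, and without liver array 7, 33. The number of members above background was 13 by the 95th percentile, 10 by the 99th and 35 by the mean plus 1. Some differences changed sign, among them -0.33 for Cd40lg and -0.14 for Tnf. Array weights gave -0.00215 for Cd27, 0.0296 for Cd40lg, 0.0358 for Fas, 0.194 for Fasl, 0.109 for Tnf, -0.0514 for Tnfrsf14 and 0.102 for Tnfrsf4. Median subtraction gave 0.00948 for Fasl and 0.0110 for Tnfrsf4, cyclic loess -0.00894 for Cd27 and -0.00539 for Tnfrsf14, and quantile normalization -0.00837 for Tnfrsf14. With 1 array left out, differences ran from -0.0329 to 0.0488 for Cd27, -0.162 to 0.0701 for Fas, -0.189 to 0.164 for Fasl, -0.0362 to 0.0535 for Tnfrsf14, -0.148 to 0.00668 for Tnfrsf25 and -0.0934 to 0.0404 for Tnfrsf4. The array numbers do not show whether a liver and a spleen array came from the same mice, so no paired analysis was possible and a pairing may have gone unused.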
